A study of Mus musculus with 7 samples.

Results

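The 10 genes described here encode parts of the contractile apparatus and the intermediate filaments of myofibroblasts: Acta2, Actg2, Tagln, Tagln2, Myl9, Tpm1, Tpm2, Cnn1, Vim and Des. They were chosen by name, and each matched 1 Ensembl gene among the 55487 in the count table. All 10 had a count in at least 1 library, and 9 were counted highly enough to be among the 10876 genes tested, Actg2 being the exception. The libraries were made from mouse precision-cut liver slices (PCLS), discs of living liver 250 µm thick and 3 mm across, taken from healthy male BALB/c mice aged 12 to 30 weeks. All slices were kept for 3 days on a shaker at 37 °C in Williams' E medium with Ultraglutamine, penicillin and streptomycin. The medium of the 3 control libraries (CTR) had no further addition, and that of the 4 VPA libraries held 2.5 mM valproic acid (VPA), an anti-epileptic drug that also inhibits histone deacetylases. No slice received a fibrogenic compound, and no library of uncultured liver was analysed here, so the values say nothing about how the genes moved between slicing and day 3.

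When liver is injured, or cut and cultured, hepatic stellate cells (HSCs) can turn into myofibroblasts that build actin stress fibres and pull on the matrix. Smooth muscle α-actin, the product of Acta2, is the protein by which these cells are usually recognised, and transgelin, calponin, tropomyosin and the myosin regulatory light chain sit on or act on the same filaments. Vimentin and desmin form a second, non-contractile network: vimentin is found in mesenchymal cells, endothelium and leukocytes alike, while desmin marks stellate cells and muscle in rodents. Many of the contractile genes are switched on by serum response factor (SRF) with its actin-sensing partners of the MRTF family, which bind a DNA element called the CArG box.

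Because these genes are known for such elements, the 250 bases before the RefSeq start of each gene (RefSeq, GRCm38.p6) were searched on both strands, and 8 of the 10 members were in that table, without Actg2 and Tagln. The windows below carry the matches, in lower case with the matched bases in capitals, 5′ to 3′ on the strand of the gene. Positions count from the RefSeq start, with upstream bases negative. A CArG box was held exactly by Myl9, and with at most 1 mismatch also by Acta2 and Tpm1.
Myl9 at −161: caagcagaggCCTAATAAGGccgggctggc
Myl9 at −99, 1 mismatch: cattcttctgCCTTGTAAGGccgggcggcc
Acta2 at −84, 1 mismatch: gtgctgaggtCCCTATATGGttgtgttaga
Acta2 at −34, 1 mismatch: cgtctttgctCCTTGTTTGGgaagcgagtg
Tpm1 at −221, 1 mismatch: gctcgggtccCCATATATAGtcatatccac
Tpm1 at −80, 1 mismatch: acaagcttttCCAAAAAAGTattggctgtc
The M-CAT element CATTCC, the site of the TEAD factors, was matched in Acta2, Tagln2 and Tpm1, and the matches in Acta2 and Tpm1 lie on the other strand and so read GGAATG here.
Acta2 at −146: gcagaacagaGGAATGcagtggaaga
Tagln2 at −118: ctttacggctCATTCCtgcctactga
Tagln2 at −80: agcgctccagCATTCCacgcggcggc
Tpm1 at −56: gctgtcctaaGGAATGcggtcgcccc
Vim had a match to TATAAA, the core of the TATA box.
Vim at −32: ctaacagtgtTATAAAagcagcgccc
The Myl9 windows lie at chr2:156775293-156775322 and chr2:156775355-156775384 on the + strand, upstream of every GENCODE transcript of the gene. The Acta2 windows lie at chr19:34255438-34255467, chr19:34255388-34255417 and chr19:34255504-34255529 on the − strand, inside an exon of a GENCODE transcript that starts further upstream. Of the Tpm1 windows on the − strand, chr9:67049415-67049444 is upstream of every transcript, and chr9:67049274-67049303 and chr9:67049254-67049279 are exonic. The Tagln2 windows (chr1:172500118-172500143 and chr1:172500156-172500181) and the Vim window (chr2:13574269-13574294), all on the + strand, are exonic as well. An exact CArG box was present in 1 of 8 member promoters and in 1.47% of 32851 promoters, and 1 with at most 1 mismatch in 3 of 8 against 18.6%. CATTCC was present in 3 of 8 against 12.6%, and TATAAA in 1 of 8 against 12.4%. A match describes the letters of the window and does not show that a factor binds there.

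The libraries held 1400887 to 4773750 counts on genes, with 17744 to 19756 genes counted in CTR and 14359 to 16761 in VPA libraries. Levels are given as CPM, counts scaled to the size of each library after TMM normalization. Because the libraries read the 3′ end of polyadenylated RNA, the counts do not grow with gene length. Comparisons of CPM between genes are still approximate, since how fully the reads of each gene were counted was not tested. Some well-counted genes were listed at 0 in single libraries: of 3135 genes with a median of at least 50 CPM, 122 (3.89%) had a 0 in at least 1 library, most often in VPA replicate 1 (62 genes). Polr2e, a subunit of RNA polymerase II that every cell uses, had 161 to 785 counts in 6 libraries and 0 in VPA replicate 1. A 0 in such a table may therefore not mean that the RNA was missing, and members with a 0 are given library by library, without a mean in that group. The cause of these zeros was not tested.

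In the CTR slices, the members covered a wide range of levels. Tpm1, a tropomyosin that wraps along actin filaments, had the highest mean at 800 ± 162 CPM (SD, n = 3), followed by Vim at 643 ± 63.2 and Tagln2 at 623 ± 36.2. In CTR replicate 2 Tagln2 stood just above Tpm1, at 624 against 621 CPM. Vim was above Tagln2 in CTR replicates 1 and 3 and below it in replicate 2, so these neighbours had no fixed order. Tagln stood at 235 ± 94.9 CPM and Acta2 at 153 ± 30.3, with Tagln the higher in each of the 7 libraries, and Tpm2 at 68.7 ± 16.5. Below these lay Myl9 with a mean of 48.6, Des with 27.5 and Cnn1 with 24.9 CPM, and Actg2 at no more than 7.0 CPM in any library. The 10 members together took 0.241 to 0.321% of the counts of the CTR libraries and 0.148 to 0.172% of those of the VPA libraries, so that the VPA libraries lay below the CTR libraries in this sum, to which Tpm1, Vim and Tagln2 contributed most.

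Vim had the lowest edgeR p among the members. This intermediate filament gene (ENSMUSG00000026728, chr2:13573927-13582826, + strand of GRCm38) had 634, 584 and 709 CPM in CTR replicates 1 to 3, and 209, 362, 313 and 335 CPM in VPA replicates 1 to 4. Every VPA library was below every CTR library, and the two-sided exact permutation p of 0.029 is the smallest that the 35 splits into 3 and 4 libraries can give. The counting error was small beside this gap, since the lowest CTR value had a 95% Poisson interval of 563 to 605 CPM and the highest VPA value one of 342 to 383. The VPA mean was 305 ± 67.1 CPM, and the fitted ratio of VPA to CTR was 0.474 (log2 fold change −1.08, standard error 0.201). In edgeR's quasi-likelihood test the unadjusted p was 0.000801, and the p adjusted over the 10876 genes tested by Benjamini-Hochberg was 0.193. The adjusted p was under the threshold of 0.05 in 3 other fits: 0.00162 with DESeq2, 0.0328 in edgeR over genes with at least 10 counts in every library, and 0.0483 over genes with a count in every library. In those fits 0.754%, 0.286% and 0.257% of the genes were called lower, against 0.0% in edgeR over all genes that passed its filter.

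Des, the second intermediate filament gene (ENSMUSG00000026208, chr1:75360329-75368579, + strand), split the VPA libraries in a different way. It had 30.2, 23.2 and 29.1 CPM in the CTR libraries, from 54 to 120 counts. It had 28.5 CPM in VPA replicate 2 and 29.0 in VPA replicate 4, and was listed at 0 in VPA replicates 1 and 3. Where Des was counted, the VPA libraries lay inside the CTR range. With the 2 zeros kept, the log2 fold change was −0.92 with a standard error of 1.35 (adjusted p = 0.945 from edgeR), and with them set aside the difference was 0.07 (exact permutation test, p = 1.0). The direction for Des therefore rests on the zeros, whose upper 95% Poisson limits are 2.36 and 2.91 CPM. The difference in log2 CPM between Vim and Des was 4.51 ± 0.14 (SD) in the CTR libraries. In the VPA libraries with a Des count it was 3.63 and 3.49, below each of the CTR values of 4.35, 4.61 and 4.57, and over all libraries it was not resolved (exact permutation p = 0.429, 0.61 adjusted over 8 ratios). Keratin 18, the product of Krt18, forms filaments in hepatocytes, and the log2 ratio of Vim to Krt18 was −0.88 ± 0.16 in CTR and −1.33 ± 0.27 in VPA libraries (exact permutation p = 0.0857, 0.343 adjusted over 8 ratios).

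**Figure D1:**
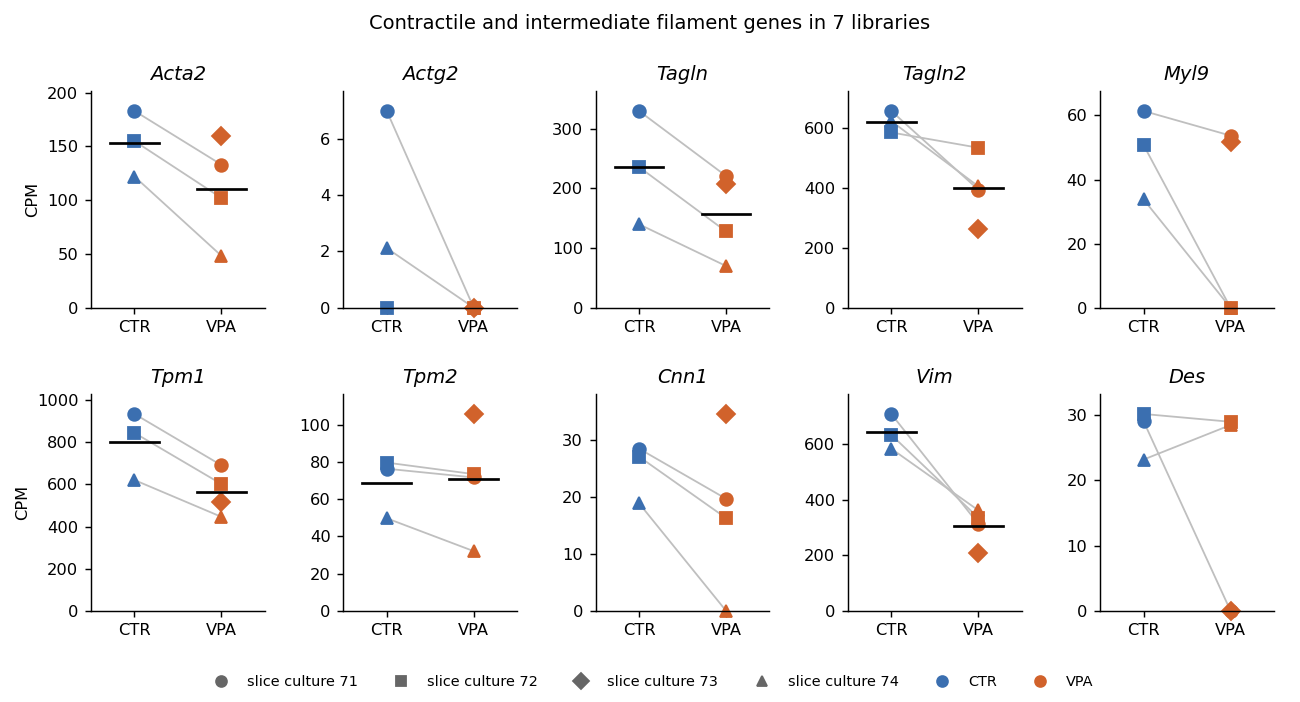
CPM of each of the 10 genes (y axis, from 0, a separate scale for each gene) in the 3 CTR and 4 VPA libraries (x axis). Each point is 1 library with its shape giving the slice culture number, grey lines join libraries of the same number, and black bars are group means, drawn where no library is at 0. Vim and Tagln2 separate the groups, while Acta2, Tagln and Tpm2 spread as widely within a group as between groups.

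Acta2, the gene for smooth muscle α-actin (ENSMUSG00000035783, chr19:34241090-34255590, − strand), had 155, 122 and 183 CPM in CTR replicates 1 to 3. In VPA replicates 1 to 4 it had 160, 48.2, 133 and 102 CPM. VPA replicates 2 and 4 were below all CTR libraries, whereas replicates 1 and 3 were within the CTR range. The means were 153 ± 30.3 and 111 ± 47.9 CPM, and the log2 fold change of −0.47 (standard error 0.38) was within the spread of the libraries (adjusted p = 0.867 from edgeR, exact permutation p = 0.286). It was −0.21 without VPA replicate 2 and −0.71 without VPA replicate 1. A fold as large as that of Vim or no difference at all would both fall within about 2 standard errors of this value. The groups overlapped for Acta2 and not for Vim, but the difference between Acta2 and Vim in log2 CPM, −2.08 ± 0.15 in CTR and −1.55 ± 1.05 in VPA, did not itself differ beyond its spread (exact permutation p = 0.457, 0.61 adjusted over 8 ratios). The difference of 0.52 was 0.13 without VPA replicate 1 and 0.97 without VPA replicate 2.

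Within the actin family, Acta2 made up 1.61, 1.90 and 1.57% of the counts in the CTR libraries and 2.88, 0.954, 1.52 and 1.57% in the VPA libraries. VPA replicate 1 had the highest share and VPA replicate 2 the lowest, and the other VPA libraries matched the CTR values or lay just under them. The log2 ratio of Acta2 to Actb, the cytoplasmic β-actin of all cells, differed by −0.03 between the groups (exact permutation p = 0.83, 0.943 adjusted over 8 ratios). Actb held 94.8 to 96.1% of the family in CTR and 90.4 to 94.9% in VPA, with 8820 ± 2560 and 6030 ± 1630 CPM (log2 fold change −0.55, adjusted p = 0.685 from edgeR). The share of Actg1, the cytoplasmic γ-actin, was 2.29 to 3.27% in CTR and 3.58 to 6.94% in VPA libraries and did not overlap, but the total it is a share of is mostly Actb. Its own level overlapped, at 210 to 267 CPM in CTR and 233 to 376 in VPA libraries (log2 fold change 0.36, adjusted p = 0.715 from edgeR). How reads that fit several actin genes or pseudogenes were counted is not given in the sources used here, so these shares are uncertain.

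Actg2, the smooth muscle γ-actin of the gut and other visceral muscle (ENSMUSG00000059430, chr6:83512905-83536265, − strand), was near the limit of detection. It had 11 counts (2.12 CPM) in CTR replicate 2, 13 counts (7.0 CPM) in CTR replicate 3, and was listed at 0 in CTR replicate 1 and in the 4 VPA libraries. The upper 95% Poisson limits of the zeros are 1.12 to 2.91 CPM in the VPA libraries, so a VPA level like that of CTR replicate 2 lies within the limit in 3 of them. No fold is given, and the exact permutation p was 0.143.

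Tagln encodes transgelin, or SM22α, an actin-bundling protein of smooth muscle and myofibroblasts (ENSMUSG00000032085, chr9:45929619-45936058, − strand). It had 236, 140 and 330 CPM in CTR replicates 1 to 3 and 208, 70.0, 221 and 128 CPM in VPA replicates 1 to 4. The groups overlapped in the same way as for Acta2, with VPA replicates 2 and 4 below the CTR range. The log2 fold change was −0.59 with a standard error of 0.438 (adjusted p = 0.849 from edgeR, exact permutation p = 0.314). Leaving out CTR replicate 3 gave −0.30, and leaving out VPA replicate 2 gave −0.33. The gene Gm48529 overlaps 3627 bases of Tagln on the other strand and had 952 counts in all, and the use of strand in the counting is not given in the sources used here, so the Tagln counts may hold reads of both.

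Tagln2, the transgelin of non-muscle cells, including leukocytes and epithelium (ENSMUSG00000026547, chr1:172500047-172507380, + strand), separated the groups. It had 586, 624 and 658 CPM in CTR replicates 1 to 3, a narrow range, and 264, 406, 395 and 535 CPM in VPA replicates 1 to 4. Each VPA library was below each CTR library, although VPA replicate 4 came close, with a 95% Poisson interval of 497 to 575 CPM against 557 to 616 for CTR replicate 1. The means were 623 ± 36.2 and 400 ± 111 CPM, and the log2 fold change was −0.64 with a standard error of 0.226. The p was 0.0226 unadjusted in edgeR, and the difference did not hold up after adjustment (adjusted p = 0.514). In the exact permutation test on log2 CPM p was 0.0571. The unadjusted edgeR p was over 0.05 without CTR replicate 2 (0.0518) and when CTR replicate 3 was left out (0.0588). The share of Tagln among transgelin counts was 28.7, 18.4 and 33.4% in CTR and 44.1, 14.7, 35.9 and 19.3% in VPA libraries, without a direction (log2 ratio of Tagln to Tagln2 higher by 0.04, exact permutation p = 0.943, also 0.943 adjusted over 8 ratios).

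Myl9 encodes the smooth muscle regulatory light chain, whose phosphorylation starts myosin contraction (ENSMUSG00000067818, chr2:156775420-156781658, + strand). It had 50.8, 33.8 and 61.4 CPM in the CTR libraries. In VPA replicates 1 and 3 it had 51.8 and 53.7 CPM, inside the CTR range, and it was listed at 0 in VPA replicates 2 and 4. The upper 95% Poisson limits of those zeros are 1.12 and 2.74 CPM, far below the 41.2 CPM at the lower end of the Poisson interval of VPA replicate 1. The log2 fold change of −0.90 had a standard error of 1.45 (adjusted p = 0.948 from edgeR). With the zeros set aside, the VPA mean of 52.7 CPM from 2 libraries stood against 48.6 from 3, a difference of 0.16 on the log2 scale (exact permutation test, p = 0.8). The zeros of Myl9 fell in the 2 VPA libraries in which Des was counted, and the zeros of Des in the 2 in which Myl9 was counted. Among light chain counts, Myl9 held 6.64, 5.70 and 6.40% in CTR and 8.84 and 6.34% in the VPA libraries that counted it. The ratio of Myl9 to Myl6, the essential light chain of non-muscle and smooth muscle myosin, was not resolved either (log2 difference −2.41, exact permutation p = 0.429, 0.61 adjusted over 8 ratios). That value rests on the 2 zeros and on the prior count of 2, with −3.40 at a prior count of 0.5 and −1.77 at 5.

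Tpm1 (ENSMUSG00000032366, chr9:67022590-67049406, − strand) gives rise to muscle and non-muscle tropomyosins by splicing, which gene counts cannot tell apart. It had 845, 621 and 935 CPM in CTR replicates 1 to 3 and 518, 446, 691 and 602 CPM in VPA replicates 1 to 4. VPA replicates 1, 2 and 4 were lower than any CTR library, and replicate 3 was between CTR replicates 2 and 1. The means were 800 ± 162 and 564 ± 106 CPM, with a log2 fold change of −0.51 and a standard error of 0.207. The unadjusted edgeR p was 0.0414 and the adjusted p was 0.575, and the exact permutation test gave p = 0.114. In the fits that omit a single library, the unadjusted edgeR p was between 0.0154 and 0.127 and was over 0.05 in 5 of 7 fits, being under it without CTR replicate 2 or VPA replicate 3.

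Tpm2, the β-tropomyosin typical of muscle (ENSMUSG00000028464, chr4:43514711-43523765, − strand), overlapped between the groups. It had 79.8, 49.8 and 76.5 CPM in CTR replicates 1 to 3, and 106, 32.1, 71.8 and 73.6 CPM in VPA replicates 1 to 4, so that both the highest and the lowest of the 7 libraries had VPA. The means of 68.7 ± 16.5 and 70.9 ± 30.3 CPM gave a log2 fold change of 0.04 with a standard error of 0.388 (adjusted p = 0.992 from edgeR, exact permutation p = 0.914). The sign of this value turned to −0.11 with limma-voom and to −0.07 without a filter on low counts, and was −0.23 without VPA replicate 1, the highest library.

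The tropomyosin family as a whole kept Tpm1 as its main form, with 49.8 to 55.0% of its counts in CTR and 48.5 to 57.6% in VPA libraries. Tpm2 held 4.95, 4.00 and 4.50% in CTR and 10.3, 3.49, 5.98 and 6.56% in VPA libraries, and 3 of the 4 VPA shares were above the CTR range. Tpm4, a non-muscle tropomyosin of stress fibres and podosomes, held 10.5 to 12.6% in CTR. In VPA libraries its share was 9.21 to 10.7%. The log2 ratio of Tpm1 to Tpm4 was 2.05, 2.25 and 2.25 in CTR and 2.31, 2.36, 2.42 and 2.53 in VPA libraries, so that Tpm4 was lower relative to Tpm1 in each VPA library than in any CTR library. The difference of 0.22 had the smallest possible exact permutation p of 0.029, and 0.229 adjusted over the 8 ratios, and with a prior count of 5 in place of 2 the exact permutation p was 0.0571. The ratio of Tpm1 to Tpm2 differed by −0.46, within its spread (exact permutation p = 0.314, 0.61 adjusted over 8 ratios), and was −0.19 without VPA replicate 1 and −0.69 without VPA replicate 2.

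Cnn1, calponin 1, a brake on smooth muscle myosin and a late marker of smooth muscle maturation (ENSMUSG00000001349, chr9:22099216-22109630, + strand), had 27.1, 18.9 and 28.5 CPM in the CTR libraries. It had 34.6, 19.7 and 16.3 CPM in VPA replicates 1, 3 and 4 and was listed at 0 in VPA replicate 2, where Myl9 was also at 0. VPA replicate 1 was the highest of all libraries and replicate 4 was below the CTR range. With the 0 kept, the log2 fold change was −0.50 with a standard error of 1.14 (adjusted p = 0.963 from edgeR), and without that library the difference was −0.13 (exact permutation test, p = 0.9). Within the calponin family Cnn1 held 11.3 to 11.9% of the counts in CTR, and 18.6, 12.6 and 9.95% in the VPA libraries that counted it. Cnn3, the non-muscle form, held 64.1 to 74.5% in CTR and 60.8 to 88.6% in VPA libraries, with the highest share in VPA replicate 2, where Cnn1 was at 0.

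**Figure D2:**
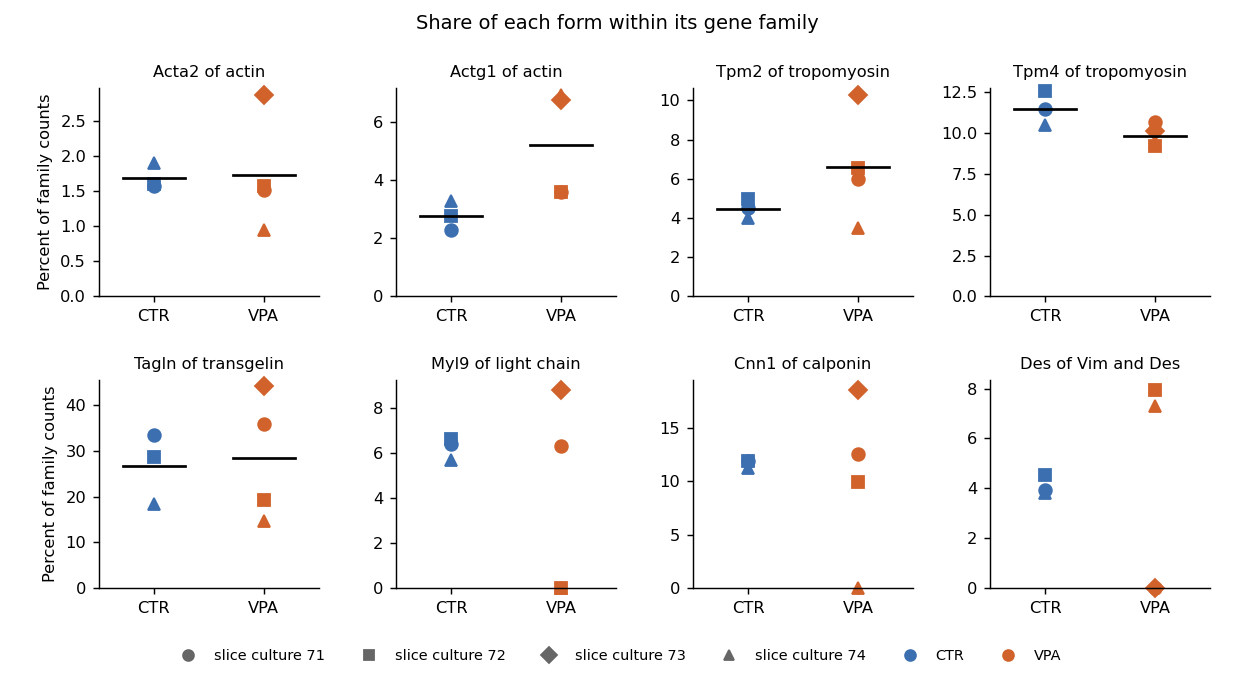
Share of 8 genes in the counts of their family (y axis, percent, from 0) in the 3 CTR and 4 VPA libraries (x axis). Points are libraries with shapes for the slice culture number, and black bars are group means, drawn where no library is at 0. Actg1 took a larger share of actin counts in each VPA library than in any CTR library, and VPA replicate 1 (diamond) had the highest share of Acta2, Tpm2, Tagln, Myl9 and Cnn1.

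Over the 9 members tested, 8 had a log2 fold change below 0 and 1 above, where 54.2% of all genes tested were below 0. The median was −0.59 and that of all genes was −0.06. An unadjusted edgeR p under 0.05 with a lower level in VPA was found for 3 of 9 members (Vim, Tagln2 and Tpm1), and 4.62% of all genes tested met the same criterion. None was higher, where 3.65% of all genes were, and none had an adjusted p under 0.05, as 0.0% of all genes had in the lower and 0.00919% in the higher direction. The groups did not overlap, with VPA lower, for 2 members (Vim and Tagln2), and for 7.38% of all genes tested. No member was higher without overlap, and 4.46% of all genes were. The 3 members lower at an unadjusted edgeR p under 0.05 became 1 without CTR replicate 3. They became 5 with slice culture number as a block, where 4.67% of all genes were lower. The 2 members without overlap became 5 without CTR replicate 2, where 14.0% of all genes were lower without overlap. Myl9 and Des passed the filter on low counts with 2 VPA libraries above it, so their CTR libraries decided that they were tested, and their direction turned with the zeros set aside. Over the 6 members with a count in every library, 5 were below 0 with a median of −0.55, where 49.1% of the 8159 genes tested with such counts were below 0 with a median of 0.01. Of the same 6 members, 2 did not overlap, and of the 8159 genes 6.67% were lower without overlap.

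The libraries carry a slice culture number in their labels, and the numbers 71, 72 and 74 each stand for 1 CTR and 1 VPA library, while 73 (VPA replicate 1) has no CTR counterpart. What the number marks is not stated, though the study counts 1 liver as a biological repeat. For Acta2, Tagln, Tpm1 and Tpm2 the library of culture 74 was the lowest in both groups, and the other cultures also stood in the same order in both groups, which was so for 22.9% of all genes with a count in every library. Culture 74 was the lowest in both groups for 11.6% of them. Vim and Tagln2 did not share this order: among the VPA libraries, Vim was highest in culture 74 and Tagln2 in culture 72.

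Within each of the 3 numbers, the VPA library was below the CTR library for all 6 members with a count in every library, and 19.3% of such genes were lower in all 3. For Acta2 the log2 differences were −0.46, −0.60 and −1.33 in cultures 71, 72 and 74, and for Tagln −0.58, −0.88 and −1.0. Tpm1 differed by −0.44, −0.49 and −0.48, the narrowest range among these genes. Tpm2 differed by −0.09, −0.12 and −0.62, Tagln2 by −0.74, −0.13 and −0.62, and Vim by −1.18, −0.92 and −0.69. VPA replicate 1, which enters no such difference, was the VPA library with the highest Acta2, Tpm2 and Cnn1 and with the lowest Vim and Tagln2. Des had no common direction, with −0.06 in culture 72 and 0.29 in culture 74, and Cnn1 differed by −0.52 and −0.70 in cultures 71 and 72. With 1 library on each side, these differences have no replicate error of their own.

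**Figure D3:**
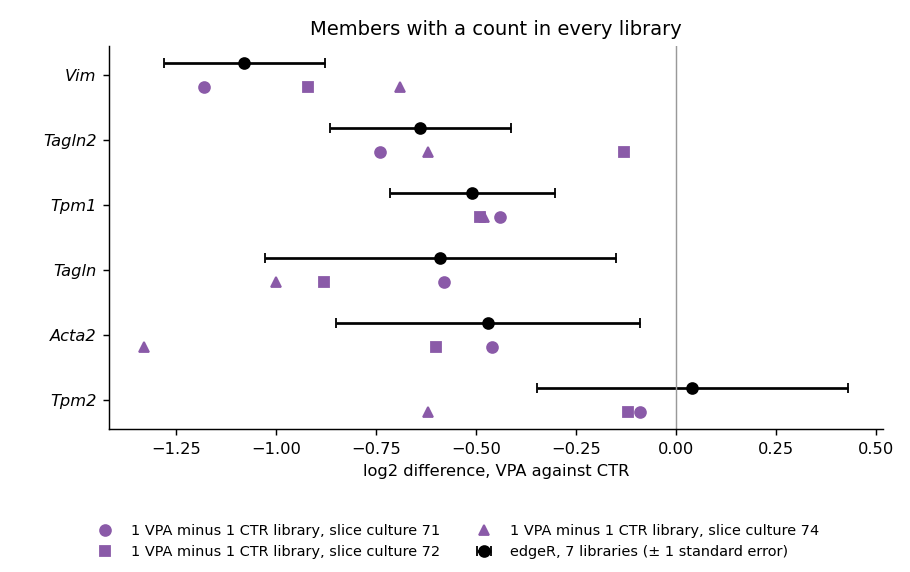
Log2 difference between VPA and CTR (x axis) for the 6 members with a count in every library (y axis). Black circles with bars are edgeR's log2 fold changes with 1 standard error over 7 libraries, and purple symbols are the differences between the 1 VPA and 1 CTR library of slice cultures 71, 72 and 74. Every purple symbol lies below 0, and Tpm2 is the gene whose fitted value lies above it.

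The members differed in which other genes followed them across the 7 libraries, measured as the root mean square difference of log2 CPM after subtracting each gene's own mean, among 6337 genes with a mean of at least 20 CPM. Among the most similar to Acta2 were Csf1, a growth factor of macrophages (0.167), Ints13, a subunit of the Integrator complex (0.179), and Tagln (0.215). Tpm2 came 27th with 0.304, Tpm1 came 186th, and Vim came at place 3421. The most similar to Vim were the ETS factor Elk3 (0.172), the splicing factor Sfpq (0.188), the 14-3-3 gene Ywhah (0.189) and Zmat2 (0.194), with Tagln2 22nd at 0.258 and Acta2 at place 3557. Acta2, Tagln and Tpm2 varied together over these libraries, and Vim varied with Tagln2. This is a description over 7 libraries that differ in condition and depth, and both enter every gene's pattern.

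Related genes outside the 10 were looked at as lists, and the counts below stand against 54.2% of all genes tested with a value below 0, 4.62% lower and 3.65% higher at an unadjusted p under 0.05. Of the genes tested with a count in every library, 49.1% were below 0. Some list genes were listed at 0 in VPA libraries, and the tallies and medians that include them rest partly on such zeros. Of 16 paralogs of the members, 11 were tested, 8 of them below 0 with a median log2 fold change of −0.40, and 2 had an unadjusted p under 0.05. These were the other tropomyosins: Tpm3 with 474 ± 25.8 CPM in CTR and 327 ± 26.6 in VPA libraries (−0.54, adjusted p = 0.295 from edgeR), and Tpm4 with 176 ± 40.0 and 105 ± 17.4 CPM (−0.74, adjusted p = 0.395 from edgeR). Of 24 further genes of smooth muscle contraction, 14 were tested, and 12 were below 0 with a median of −0.37. The 12 include genes with zeros, such as Myh11, listed at 0 in VPA replicate 3, and Ppp1r14a, listed at 0 in replicates 3 and 4. In this fit 1 of the 14 had an unadjusted p under 0.05, a share near that of all genes. This was Nexn, an actin-binding protein of the Z-disc and stress fibres, with 66.6, 60.8 and 80.8 CPM in CTR and 42.2, 33.3, 26.8 and 44.6 CPM in VPA libraries (−0.92, adjusted p = 0.339 from edgeR). With slice culture number as a block 3 of the list were lower, where 4.67% of all genes were, and with replicate number 4, where 5.63% were.

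Of 40 genes of actomyosin and stress fibres, 37 were tested, 30 of them below 0 with a median of −0.35. The 30 include genes with zeros, such as Vcl, listed at 0 in VPA replicates 1 to 3, and Capg, listed at 0 in replicates 1 and 3. At an unadjusted p under 0.05, 8 of the list were lower with none higher, though 2 were higher with replicate number as a block and 1 without VPA replicate 4. The 5 with the smallest p were the crosslinker Actn1 (−0.62, adjusted p = 0.328), the membrane linker Msn (−0.64, 0.377), filamin A, Flna (−0.71, 0.393), the actin-sequestering Tmsb10 (−0.74, 0.447) and the focal adhesion gene Tgfb1i1, also called Hic-5 (−1.69, 0.447), all adjusted p from edgeR. The fold of Tgfb1i1 rests on low levels, 14.5 to 28.4 CPM in CTR and 4.24 to 9.66 in VPA libraries. Among epithelial and nuclear intermediate filament genes and their linkers, 11 of 14 were tested, 6 below and 5 above 0 with a median of −0.20, and 2 were lower at an unadjusted p under 0.05. They were the keratin partners of hepatocytes and bile ducts, Krt18 with 1200 ± 222 and 761 ± 141 CPM (−0.65, adjusted p = 0.447 from edgeR) and Krt8 with 645 ± 366 and 268 ± 139 CPM (−1.27, adjusted p = 0.575 from edgeR). For the transcriptional control by SRF, MRTF, YAP and related factors, 23 of 29 genes were tested, 17 below and 6 above 0 with a median of −0.19. Here 2 were lower and 2 higher at an unadjusted p under 0.05: Mef2c (−1.48) and Tead1 (−0.47) were lower, and Skil (0.58) and Mef2a (0.40) higher, with adjusted p from edgeR of 0.447, 0.595, 0.462 and 0.583. This even split became 4 lower and 1 higher with limma-voom or without a filter on low counts, and 1 lower and 0 higher when CTR replicate 3 was left out. Srf itself was counted in 2 CTR libraries, at 2.51 and 5.39 CPM, listed at 0 in the other 5 libraries, and not tested. After adjustment over all genes tested, none of the genes in these 5 lists was under 0.05.

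**Figure D4:**
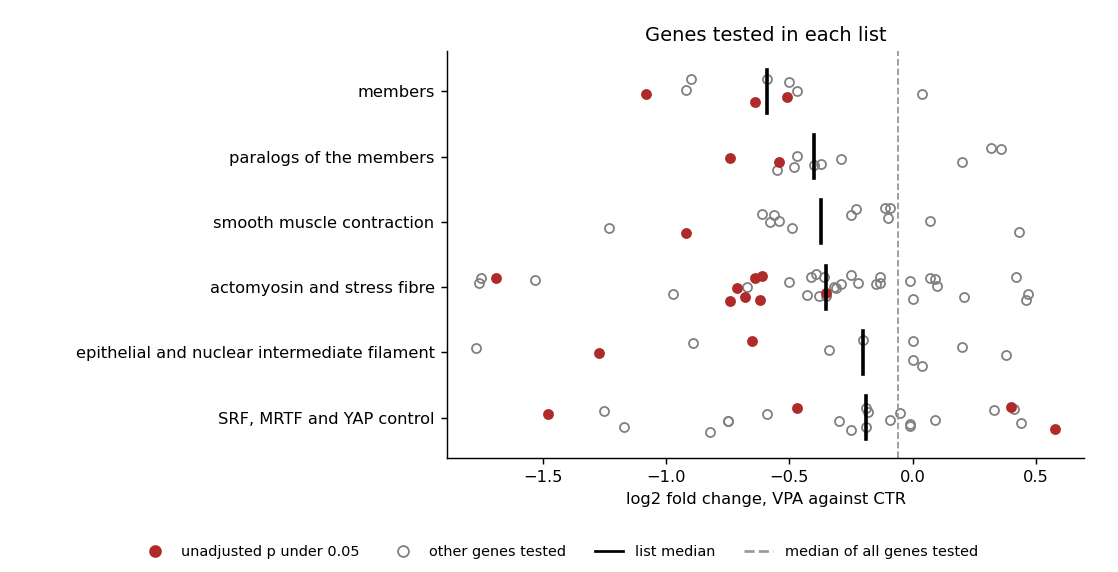
Log2 fold change of VPA against CTR from edgeR (x axis) for the genes tested in the 10 members and in 5 related lists (y axis, jittered). Filled red points have an unadjusted p under 0.05, open points do not, black bars are list medians and the dashed line is the median of all genes tested, −0.06. The 6 list medians lie between −0.59 and −0.19, all left of the dashed line.

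Markers of the cell types that express the members were read as summed CPM, because in whole slices fewer cells of a type and less RNA per cell cannot be told apart. All 13 HSC markers were counted, with a sum of 1190 to 2450 CPM in CTR and 1100 to 3380 in VPA libraries, and the groups overlapped. Dcn, which gives the matrix protein decorin, made up much of this sum, with 402 to 1120 CPM in CTR and 589 to 1770 in VPA libraries. Gene by gene, 9 of 13 were below 0 with a median log2 fold change of −0.33, and none had an unadjusted p under 0.05. For smooth muscle and pericytes 8 of 10 markers were counted (Higd1b and Pln at 0), with 68.9 to 163 CPM in CTR and 104 to 153 in VPA libraries, and for portal fibroblasts 9 of 10 (Clec3b at 0), with 95.9 to 186 and 95.5 to 197 CPM. All 12 hepatocyte markers had a count in at least 1 library, with a sum of 8010 to 22200 CPM in CTR and 5540 to 19100 in VPA libraries. They were far from even. Trf had a mean of 4380 CPM over the libraries, while Cps1 had 6.84 with 0 in 2 libraries, and Tat 0.953 with 0 in 4. Vim and Tagln2 are also made by endothelium and leukocytes. All 10 liver endothelial markers were counted, at 267 to 349 CPM in CTR and 113 to 289 in VPA libraries, lowest in VPA replicates 1 and 3 (113 and 126 CPM). VPA replicate 1 also had the lowest Vim and Tagln2. The place of replicate 3 was within counting error. Its 95% Poisson interval for Vim was 283 to 345 CPM against 305 to 367 in replicate 4, and for Tagln2 361 to 431 against 384 to 428 in replicate 2. Of the 8 endothelial markers tested, 7 were below 0 with a median of −0.52, and 2 were lower without overlap, beside 7.38% of all genes. The first, Tek, had 12.8 to 16.2 CPM in CTR and was listed at 0 in the 4 VPA libraries. The other, Cdh5, had 63.9 to 78.7 CPM in CTR, was listed at 0 in VPA replicates 1 and 2, and had 29.2 and 26.0 CPM in replicates 3 and 4. Tek, which had the only unadjusted p under 0.05 in this list, passed the filter through its CTR libraries alone and the values of Cdh5 include 2 zeros, so this tally and median carry the same limit as those that include Myl9 and Des. For macrophages and leukocytes 8 of 10 markers were counted (Adgre1 and Marco at 0), with 267 to 337 and 270 to 464 CPM. Itgam in this list had 8.52 to 10 CPM in CTR, was listed at 0 in VPA replicates 1 and 2, and had 3.95 and 2.97 CPM in replicates 3 and 4. Rgs4 among the smooth muscle and pericyte markers had 7.36 to 9.70 CPM in CTR, 0 in VPA replicate 1 and up to 3.95 in the other VPA libraries. Both were lower without overlap, but like Tek they passed the filter through their CTR libraries alone and carry the same limit. Their unadjusted edgeR p was 0.114 and 0.169. Cholangiocyte markers gave 433 to 715 and 271 to 788 CPM from 8 of 8 genes, and 1 of them was lower at an unadjusted p under 0.05 and without overlap: Cldn4, a tight junction gene, with 153 ± 45.9 CPM in CTR and 35.5 ± 12.6 in VPA libraries (log2 fold change −2.11, adjusted p = 0.142 from edgeR). The mesothelial sum did not overlap, with 15.1 to 45 CPM in CTR and 118 to 267 in VPA libraries from 8 of 9 genes (Bnc1 at 0), and without Slpi it was 1.62 to 21.4 and 1.58 to 21.1. The part of any of these cell types in the levels of the members was not tested.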

How the data were processed

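RNA of 7 PCLS cultures was sequenced by the authors with a 3′ end kit (QuantSeq FWD). The submitters' notes name STAR, StringTie and mm10 (GRCm38), and the authors deposited raw counts per gene. Counting program, strand use and handling of multi-mapping reads are not given in the sources used here. Groups came from the sample titles, and no label states that replicates are separate animals. The study counts 1 liver as a biological repeat, but its n of 4 for this experiment does not match the 3 CTR libraries analysed here. The p-values measure the spread between these libraries, which may be technical.

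Symbols came from GENCODE M21, with 260 genes unmatched. Counts were tested in R 4.3.3 with edgeR 4.0.16 (TMM, filterByExpr, robust quasi-likelihood fit, condition as the only term) over 10876 genes, and p-values were adjusted by Benjamini-Hochberg (threshold 0.05). DESeq2 1.42.0, used by the study, and limma 3.58.1 (voom) were alternatives, beside other filters, scalings, blocks and leaving out each library. Log2 CPM had a prior count of 2. Single values were compared by two-sided exact permutation over 35 splits. Intervals are exact Poisson and, like the limit of 3 counts behind a 0, cover counting error only. The code was tested on simulated counts.

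The members and lists were chosen with earlier results of these data known. Named are the 10 members, list genes with an unadjusted p under 0.05 (at most the 5 smallest), the second genes of the ratios, and the 4 genes most like Acta2 and Vim, of which 1 is not reported here. Actg1, Cnn3, Srf, Myl12a, Polr2e, Gm48529, Myh11, Ppp1r14a, Vcl, Capg, Dcn, Trf, Cps1, Tat, Tek, Cdh5, Cldn4, Itgam, Rgs4 and Slpi were named after their values were seen.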

Additional observations from a re-analysis of the deposited data

Results flagged for a closer look

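Among 41 measures of the members, their families and the libraries, 2 had a VPA library set apart from the other 3 by more than Dixon's 95% critical value for 4 samples, and chance alone flags a share of about 0.05 of such groups. In VPA replicate 2, Myl12a, a regulatory light chain of non-muscle myosin, held 48.5% of the light chain counts, where the other VPA libraries had 29.2 to 32.4%. Myl9 was listed at 0 in the same library. The total of VPA replicate 2, 3102450 counts, was also set apart, with 1400887 to 1515954 counts in the other VPA libraries.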

How the results depend on the processing

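What the numbers of slice cultures and of replicates mark is not stated. Deviations of libraries with the same culture number correlated by 0.107, 0.0256 and 0.0546 in cultures 71, 72 and 74. These cultures stood in the same order in both groups for 4 of 6 members, and for 22.9% of all genes with a count in every library. For Acta2 the standard error was 0.38 without and 0.229 with slice culture number as a block, and for Tagln 0.438 and 0.148. Whether the number marks a true pairing was not tested. With slice culture number as a block, 5 members were lower at an unadjusted p under 0.05 (Acta2, Tagln, Tagln2, Tpm1 and Vim) against 3, where 4.67% of all genes were, Tpm2 turned to −0.29, Acta2 had −0.81 (unadjusted edgeR p 0.0219) and Tagln −0.83 (0.00416), Vim had −0.93 and an adjusted p of 0.494, and the lists gave 4 paralogs, 3 smooth muscle contraction genes and 1 epithelial filament gene. With replicate number as a block the counts were 5 paralogs (1 of them higher), 4 smooth muscle, 13 actomyosin (2 of them higher) and 1 epithelial, and Tpm2 was −0.10. Of all genes in this fit, 5.63% were lower and 3.42% higher at an unadjusted p under 0.05.

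Members at an adjusted p under 0.05 were 1 (Vim) with DESeq2, with at least 10 counts in every library and with a count in every library, a filter added after the data were seen. At an unadjusted p under 0.05, each of these 3 fits gave 2 smooth muscle genes, both lower, and 2 SRF, MRTF and YAP genes, 1 lower and 1 higher. Of all genes, 2.69% were lower and 1.86% higher with DESeq2. The shares were 6.22% and 7.79% with at least 10 counts, and 5.85% and 6.63% with a count in every library. Limma-voom gave 5 members lower, among them Myl9 and Cnn1, which have zeros, where 9.95% of all genes were lower, and 3 smooth muscle genes, with Tpm2 at −0.11. Without a filter, over 26086 genes, there were 4 paralogs, 2 smooth muscle and 14 actomyosin genes, and Tpm2 was −0.07. No share over all genes was taken for this fit, so its counts cannot be set against one. RLE scaling and a fit without robust dispersion moved 1 count by over 1.5 times, the SRF, MRTF and YAP genes that were lower, from 2 to 1. Zeros set aside, also chosen afterwards, turned Myl9 to 0.16 and Des to 0.07. The Tpm1 to Tpm4 ratio of 0.22 had an exact permutation p of 0.0571 at a prior count of 5.

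With each library left out, members lower were 1 to 3 (1, Vim, without CTR replicate 3), members without overlap 2 to 5 (5 without CTR replicate 2, where 14.0% of all genes did not overlap), paralogs 2 to 5 (4 without VPA replicate 3, 5 without CTR replicate 2), smooth muscle 1 to 2, actomyosin 6 to 12, epithelial 1 to 2 and SRF, MRTF and YAP genes 1 to 3. The Vim log2 fold change ranged from −1.17 to −0.93 and its adjusted p from 0.184 to 0.82. Tpm2 ranged from −0.23 (without VPA replicate 1) to 0.30 and was −0.16 without CTR replicate 2. The Tpm1 to Tpm4 ratio ranged from 0.16 to 0.26, where p cannot go below 0.0667 or 0.1. Acta2 to Actb ranged from −0.33 to 0.21 (0.21 without VPA replicate 2, 0.00 without VPA replicate 3 and 0.06 without CTR replicate 2), and Tagln to Tagln2 from −0.32 (without VPA replicate 1) to 0.41, with −0.16 without VPA replicate 3 and −0.29 without CTR replicate 2. The causes were not tested. At 1400887 counts, a gene under 2.37 CPM can be missed.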
